A study of Mus musculus with 24 samples.

Results

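The 10 genes described here encode transcription factors that specify and maintain neurons of the hypothalamus: Otp, Sim1, Pou3f2, Arnt2, Nkx2-1, Six3, Six6, Hmx2, Hmx3 and Isl1. They were taken by name from a table of 22274 genes, and all 10 were listed there under their Ensembl identifiers. RNA had been sequenced from 24 mouse brain samples in 8 groups of 3. The mice were male C57BL/6J animals. They had either a Sham operation or PEL, an electrical lesion made with cathodic current through the pituitary stalk, which connects hypothalamus and pituitary. There were 6 groups of hypothalamic tissue holding the supraoptic and paraventricular nuclei: Sham, labelled day 0, PEL_3d, collected on day 3 after the lesion, PEL_10d, collected on day 10, and 3 groups of the same kinds treated with growth hormone (GH). Hippocampal tissue came from Sham mice (HIP Sham) and from PEL mice at day 10 (HIP PEL_10d), none of them given GH. All Sham groups are labelled day 0, so in comparisons with Sham the lesion cannot be told apart from the day of collection. The dose and schedule of GH are not given in the sources used here. Nothing states that each library is 1 animal, and p-values measure the spread between these libraries.

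Hypothalamic neurons arise from domains of the embryonic forebrain that are marked by different homeobox and basic helix-loop-helix (bHLH) factors. SIM1 and its partner ARNT2 bind DNA as a dimer, and together with OTP and POU3F2 they are required for the neurons of the paraventricular and supraoptic nuclei that make vasopressin, oxytocin and releasing hormones. NKX2-1, SIX3, SIX6, HMX2, HMX3 and ISL1 belong to ventral and anterior parts of the hypothalamus, and HMX2 and HMX3 are known for their role in neurons that make growth hormone-releasing hormone.

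Total counts ranged from 15095267 to 17973494 per library. A library labelled Sham 1 and another labelled HIP Sham 1 stood apart from the libraries of their labelled tissues. Summed over a list of 11 hypothalamus markers, Sham 1 held 9.88 FPKM (fragments per kilobase of gene, scaled by the authors to library size), against 950 to 6701 in the other 17 hypothalamic libraries, and HIP Sham 1 held 1221 FPKM, against 3.08 to 6.92 in the other 5 hippocampal libraries. Over 12 hippocampus markers the sums were 281 FPKM in Sham 1 and 45.8 FPKM in HIP Sham 1, against 33.8 to 50.4 in the hypothalamic and 311 to 412 in the hippocampal libraries. Choroid plexus markers summed to 14883 FPKM in Sham 1 and to at most 25.6 FPKM in the other hypothalamic libraries. In the hippocampus they summed to 4341 and 5438 FPKM in HIP Sham 2 and 3, to 136, 39.7 and 799 FPKM in the HIP PEL_10d libraries and to 18.05 FPKM in HIP Sham 1. The study left 1 hypothalamic Sham library out as an outlier. Comparisons of Sham and HIP Sham with another group are therefore given without Sham 1 or HIP Sham 1, and then with them. GH over all lesion groups and the interactions that use these groups were fitted only without them. PEL_10d with GH 3 also differed from its replicates, with 6701 FPKM of hypothalamus markers against 1238 and 1772 FPKM, and 5859 FPKM over 8 neuroendocrine peptide genes against 455 and 445 FPKM. Pomc, in both lists, had a mean of 493 FPKM over the 12 lesioned libraries. Its median over the 17 hypothalamic libraries without Sham 1 was 43.6 FPKM, so these sums need not reflect other peptide genes. HIP Sham 3 is titled as hippocampus but has hypothalamus in its tissue field, and it was grouped by its title. Otp, Sim1, Six6, Hmx2 and Hmx3 were all at 0 FPKM in it.

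The promoters of 5 of the genes are printed: those of Sim1, Pou3f2 and Isl1, which held a motif searched for, and of Six3 and Six6, whose levels varied together. That of Hmx2, which also held a motif searched for, is not shown. Those of Nkx2-1, Otp, Hmx3 and Arnt2, which fell in comparisons given here, are not shown either. Each is 250 bases before to 50 bases after the start of the gene, from RefSeq on GRCm38.p6, read 5′ to 3′ on the gene's strand. Capitals mark the letters ACGTG, the core that SIM1 and ARNT2 dimers bind, and TATAAA, the letters of the TATA box, on either strand. Matches are of letters only, whatever their strand or distance from the start of the gene.
Sim1, chr10:50895401-50895700, plus strand: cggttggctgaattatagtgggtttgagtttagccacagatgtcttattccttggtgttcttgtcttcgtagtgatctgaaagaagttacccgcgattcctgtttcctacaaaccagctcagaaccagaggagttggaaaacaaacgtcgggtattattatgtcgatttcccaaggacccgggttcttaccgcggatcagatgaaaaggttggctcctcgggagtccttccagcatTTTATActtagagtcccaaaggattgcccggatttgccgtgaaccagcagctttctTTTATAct
Pou3f2, chr4:22488317-22488616, minus strand: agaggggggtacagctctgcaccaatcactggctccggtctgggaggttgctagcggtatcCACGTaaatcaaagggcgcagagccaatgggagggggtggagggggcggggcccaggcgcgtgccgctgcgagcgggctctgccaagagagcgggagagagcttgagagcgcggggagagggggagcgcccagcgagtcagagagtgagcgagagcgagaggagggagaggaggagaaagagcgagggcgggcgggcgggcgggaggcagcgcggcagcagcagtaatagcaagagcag
Isl1, chr13:116309639-116309938, minus strand: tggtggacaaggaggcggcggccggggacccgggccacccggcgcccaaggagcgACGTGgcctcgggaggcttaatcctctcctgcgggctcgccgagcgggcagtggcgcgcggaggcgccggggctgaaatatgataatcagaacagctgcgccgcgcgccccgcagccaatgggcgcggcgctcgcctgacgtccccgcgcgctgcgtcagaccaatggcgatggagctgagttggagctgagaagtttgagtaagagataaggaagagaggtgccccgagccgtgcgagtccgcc
Six3, chr17:85620584-85620883, plus strand: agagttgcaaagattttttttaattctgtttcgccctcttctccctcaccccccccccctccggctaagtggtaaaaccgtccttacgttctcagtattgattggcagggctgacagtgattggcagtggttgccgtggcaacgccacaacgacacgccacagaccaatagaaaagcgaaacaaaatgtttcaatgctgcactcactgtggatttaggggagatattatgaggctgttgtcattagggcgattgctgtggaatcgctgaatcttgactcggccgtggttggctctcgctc
Six6, chr12:72939632-72939931, plus strand: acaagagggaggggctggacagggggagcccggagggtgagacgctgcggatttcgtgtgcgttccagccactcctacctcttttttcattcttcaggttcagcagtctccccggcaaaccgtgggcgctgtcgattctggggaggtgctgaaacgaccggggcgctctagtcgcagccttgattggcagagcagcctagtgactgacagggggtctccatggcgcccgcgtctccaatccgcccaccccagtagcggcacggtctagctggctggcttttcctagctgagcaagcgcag

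ACGTG was found in 2 of the 10 promoters, those of Pou3f2 and Isl1, and in 19.7% of the 27025 promoters in the table. TATAAA was found in the promoters of Sim1, which held 2 matches, both on the opposite strand, and Hmx2, and in 14.2% of all promoters. The second match in Sim1 lay after the start of the gene. The table holds 2 promoters for Hmx2, and its values here are those of the first one listed. ATGCAAAT, the octamer that POU factors bind, and CAAGTG, a core that NKX2-1 binds, were found in 0 of the 10 and in 1.75% and 13.5% of all promoters. The promoters of the 10 genes had a GC content of 46% to 78%, against a median of 52.7% over all promoters, and held between 2 (Hmx2) and 40 (Arnt2) CpG dinucleotides, against a median of 7. Hmx3 and Hmx2 lie 3847 bases apart on the plus strand of chromosome 7 of GRCm38, Hmx3 from 131542867 to 131544925 and Hmx2 from 131548773 to 131558014, and both overlap Fgfr2 on the minus strand. Six6, on chromosome 12 from 72939892 to 72944899, overlaps 4930447C04Rik on the other strand. Whether counting used strand is not given in the sources used here, so reads of these genes cannot be told apart from those of their antisense partners. The same limit holds for Six3, which overlaps Six3os1 and Gm28528, Nkx2-1, which overlaps Gm26973, and Arnt2, which overlaps Gm30873, all annotated on the opposite strand and not listed in the table.

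In the 17 hypothalamic libraries without Sham 1, Arnt2 had the highest level per length, with a median of 58.3 FPKM (45.3 to 66.8). Its range did not overlap that of the next gene. Otp, a homeobox factor of the neuroendocrine hypothalamus, followed at 16.8 FPKM (12.7 to 23.5), then Six3 at 9.88 (7.23 to 14.7), Nkx2-1 at 8.10 (6.003 to 14.4) and Isl1 at 7.82 FPKM (5.32 to 12.5). Six6 had a median of 4.01 FPKM, Pou3f2 3.83 FPKM, Hmx3 2.27 FPKM, Sim1 2.02 FPKM and Hmx2 0.949 FPKM. From Otp down, the range of each gene overlapped that of its neighbour in this order. Hmx2 had only 12 to 56 counts per library, which limits its precision.

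**Figure D1:**
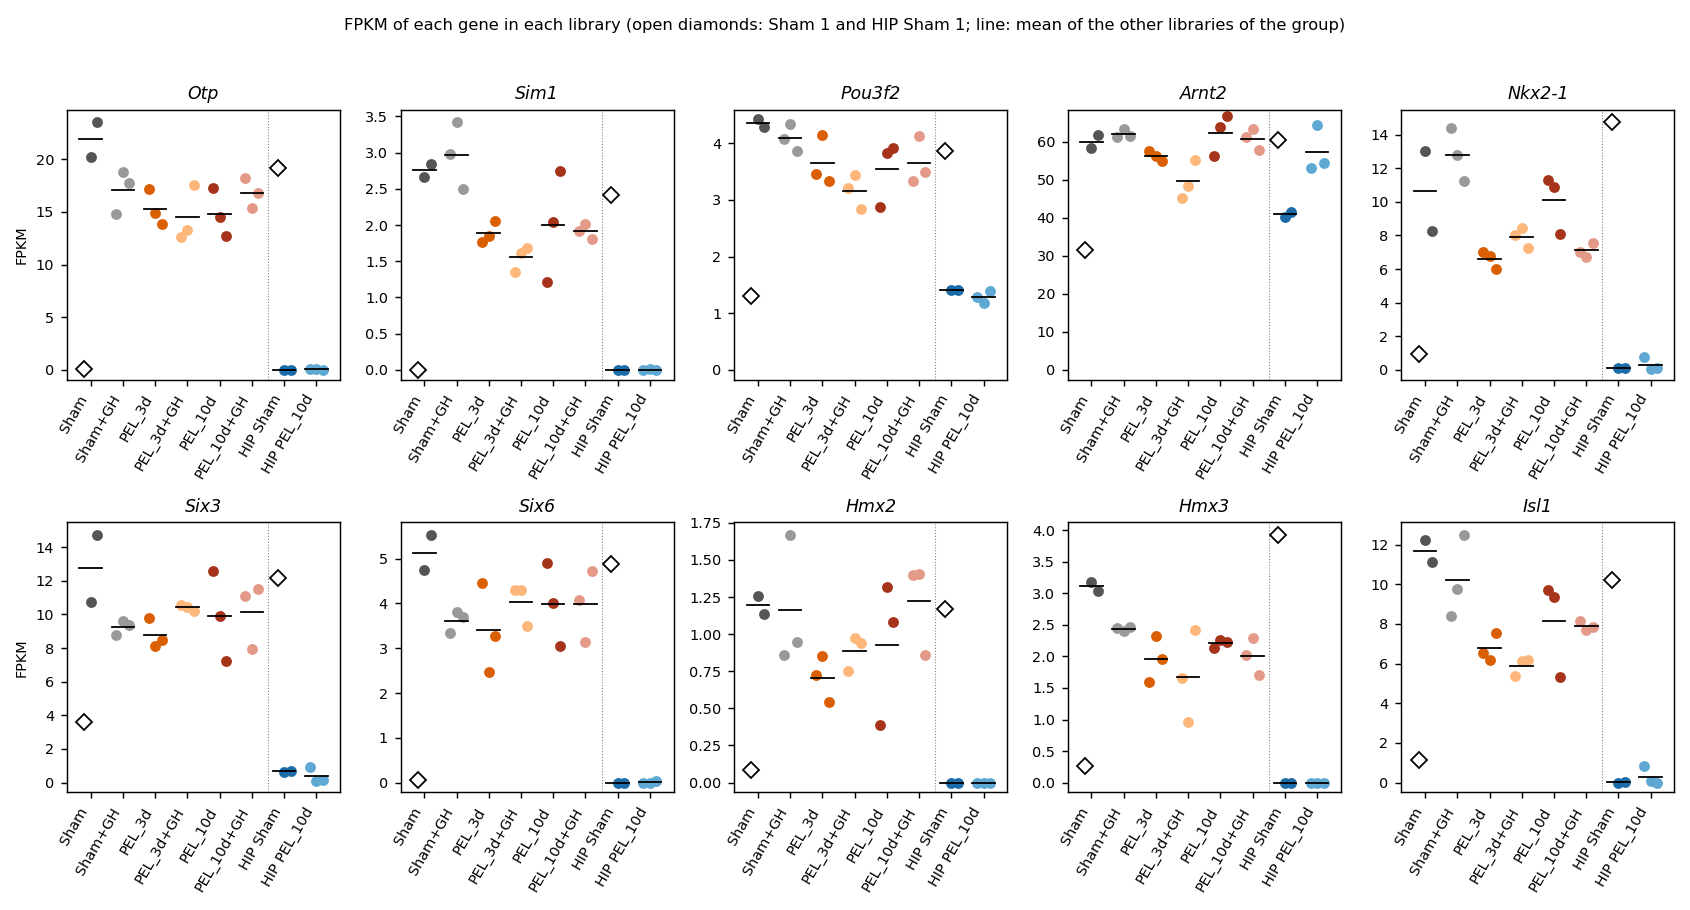
FPKM of each of the 10 genes (1 panel a gene, linear axes) in each of the 24 libraries, by group. Points are libraries, black lines are group means without the open diamonds, which are Sham 1 and HIP Sham 1. Otp lies between 12.7 and 23.5 FPKM in 17 hypothalamic libraries and at 0.074 FPKM in Sham 1.

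At day 10 after the lesion, 9 of the 10 genes were higher in the hypothalamus than in the hippocampus, and Arnt2 was not distinguished. Of all 14561 genes tested, 30.9% were higher in the hypothalamus. The genes were picked by name as hypothalamic factors, and 7 of them had too few counts to be tested within the hippocampus, so they entered this comparison through the group where they are high and nothing is read from their count. Otp was at 17.3, 14.5 and 12.7 FPKM in the PEL_10d libraries and at 0.071, 0.042 and 0.024 FPKM in the HIP PEL_10d libraries, a ratio of 326 (95% exact binomial interval 149 to 889, counting error only). Sim1 was at 1.21, 2.04 and 2.75 FPKM in the hypothalamus and had 1 count in all over the 3 hippocampal libraries (ratio 615, interval 110 to 24350). Six6 had 2 counts in all there (ratio 398, interval 110 to 3292). For these genes no hippocampal library came near a hypothalamic one.

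Hmx2 and Hmx3 had 0 counts in every HIP PEL_10d library, and against a floor of 3 counts per library they were at least 9.90-fold and 17.7-fold higher in the hypothalamus. Nkx2-1, which marks the ventral forebrain, was 35.5 times higher (interval 25.1 to 51.8), Isl1, a LIM homeobox factor, 27.8 times (19.9 to 39.9) and Six3 24.3 times (18.4 to 32.9). Most hippocampal counts of these 3 genes came from HIP PEL_10d 1, where Nkx2-1 was at 0.784 FPKM, Isl1 at 0.823 FPKM and Six3 at 0.945 FPKM, against at most 0.085, 0.066 and 0.134 FPKM in the other HIP PEL_10d libraries. Without HIP PEL_10d 1 the log2 fold changes rose from 4.88 to 6.97 for Nkx2-1, from 4.52 to 7.44 for Isl1 and from 4.34 to 5.95 for Six3, so the intervals above, which cover counting error only, are narrower than the spread between libraries. Pou3f2, a POU factor also used in cortical neurons, differed least among the 9, with a log2 fold change of 1.21 (SE 0.15, adjusted p = 0.00012, edgeR). Arnt2, the widely used bHLH partner, was at 56.4, 64.1 and 66.8 FPKM in the hypothalamus and at 53.0, 64.6 and 54.6 FPKM in the hippocampus, which overlap (log2 fold change -0.13, SE 0.09, adjusted p = 0.247, edgeR). Its direction depends on the scaling: the ratio of hypothalamus to hippocampus per total count was 1.08 (1.06 to 1.10), while the fold change after TMM normalization was below 0. Of 24 other hypothalamic transcription factors, 21 were tested, of which 16 were higher and 3 lower in the hypothalamus. Of 12 hippocampal transcription factors, 12 were lower. These lists were also chosen by tissue, and their counts are descriptions.

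Sham 1 was below each of the other 17 hypothalamic libraries for all 10 genes, and HIP Sham 1 was above each of the other 5 hippocampal libraries for 9 of them. In Sham 1, Otp was at 0.074 FPKM (3 counts), Sim1 at 0 FPKM, Six6 at 0.065 FPKM (4 counts) and Arnt2 at 31.5 FPKM. In HIP Sham 1, Otp was at 19.2 FPKM (774 counts), Sim1 at 2.42 FPKM (229 counts), Six6 at 4.89 FPKM (298 counts) and Arnt2 at 60.4 FPKM. HIP Sham 1 lay within the range of the 17 hypothalamic libraries for 8 genes and above it for Nkx2-1 (14.8 FPKM) and Hmx3 (3.93 FPKM). Sham 1 lay within the range of the 5 hippocampal libraries for Sim1 and Pou3f2, above it for 7 genes and below it for Arnt2. Six3, for example, was at 3.61 FPKM in Sham 1, against 0.115 to 0.945 FPKM in the 5 hippocampal and 7.23 to 14.7 FPKM in the 17 hypothalamic libraries. The labels were kept as given.

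**Figure D2:**
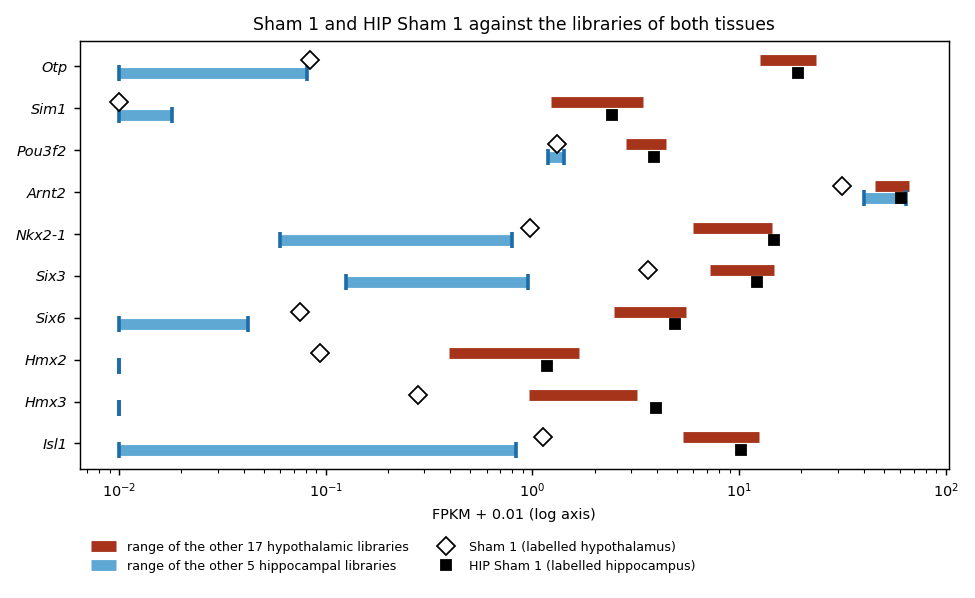
FPKM + 0.01 on a log axis for each of the 10 genes. Bars span the other 17 hypothalamic libraries (red) and the other 5 hippocampal libraries (blue, ticks at both ends), the open diamond is Sham 1 and the black square HIP Sham 1. All 10 diamonds lie to the left of the red bars, and 8 squares lie within them.

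On day 3 after the lesion, 7 of the 10 genes fell against Sham without Sham 1, where 18.2% of all genes tested were lower: Isl1, Nkx2-1, Hmx3, Six6, Six3, Sim1 and Otp. Isl1 was at 12.2 and 11.1 FPKM in Sham 2 and 3 and at 6.55, 6.20 and 7.55 FPKM in PEL_3d. The groups did not overlap, and the log2 fold change was -0.84 (SE 0.11, adjusted p = 0.00024, edgeR). Sim1 had 2.67 and 2.84 FPKM in Sham, while the PEL_3d libraries had 1.76, 1.86 and 2.06 FPKM, again without overlap (log2 fold change -0.56, SE 0.13, adjusted p = 0.00529, edgeR). In Sham 2 and 3, Otp had 20.3 and 23.5 FPKM, and the PEL_3d libraries had 17.2, 14.9 and 13.8 FPKM (log2 fold change -0.53, SE 0.10, adjusted p = 0.00221, edgeR). Both Sham libraries lay above the 3 PEL_3d libraries for this gene too. In bulk tissue, fewer cells of a type and less RNA per cell cannot be told apart. In the same comparison 6 of 8 neuron markers fell, with a median log2 fold change over the 8 of -0.33 against -0.60 over the 10 genes, and they summed to 1242 to 1385 FPKM in PEL_3d and 1569 to 1644 FPKM in Sham. The 7 microglia and macrophage markers rose, summing to 402 to 479 FPKM against 75.4 to 83.2 FPKM. Astrocyte markers summed to 1102 to 1244 FPKM in PEL_3d against 432 to 463 FPKM. Oligodendrocyte markers summed to 2131 to 2218 FPKM against 1895 to 2655 FPKM, which overlap. The part of these shifts in the falls of the 7 genes was not tested.

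The other falls at day 3 were a log2 fold change of -0.69 for Nkx2-1 (SE 0.18, adjusted p = 0.0109, edgeR), -0.58 for Six3 (SE 0.13, adjusted p = 0.00446, edgeR), -0.61 for Six6 (SE 0.20, adjusted p = 0.0295, edgeR) and -0.68 for Hmx3 (SE 0.25, adjusted p = 0.0496, edgeR). Hmx3 was close to the threshold and passed it under 3 of 11 alternatives. Nkx2-1 lost its call without Sham 2, where its log2 fold change was -0.30, and Six3 without Sham 3. Six6 lost its call without Sham 2, Sham 3 or PEL_3d 3, and Sim1 without Sham 3 and in 1 fit over all groups of the tissue. Pou3f2 (log2 fold change -0.28), Arnt2 (-0.11) and Hmx2 (-0.75, SE 0.33) did not pass. With 2 Sham libraries the count rested on each of them, being 4 or 3 genes when 1 was left out. With Sham 1 included, 0 of the 10 genes passed at day 3, also at an unadjusted p under 0.05 and with DESeq2, and 11.4% of all genes did.

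At day 10, 1 of the 10 genes fell against Sham without Sham 1, where 1.43% of all genes tested were lower. Otp was at 17.3, 14.5 and 12.7 FPKM in PEL_10d, below both Sham libraries, with a log2 fold change of -0.59 (SE 0.12, adjusted p = 0.0209, edgeR). It did not pass when Sham 2 or Sham 3 was left out. Isl1 was at 9.71, 9.36 and 5.32 FPKM, also below both Sham libraries, but with a wider spread (log2 fold change -0.55, SE 0.21, adjusted p = 0.141, edgeR). Sim1 ranged from 1.21 to 2.75 FPKM and overlapped Sham. Nkx2-1 had a log2 fold change of -0.10 (SE 0.21) and Arnt2 of 0.02 (SE 0.08). At this day 2 of 8 neuron markers fell and 5 of 7 microglia and macrophage markers rose. Of 5 astrocyte markers 3 rose, summing to 787 to 896 FPKM against 432 to 463 FPKM, and of 5 oligodendrocyte markers 2 rose, summing to 3072 to 3257 FPKM against 1895 to 2655 FPKM. Their part in the values of the 10 genes was not tested. With Sham 1 included, 0 of the 10 passed, also at an unadjusted p under 0.05 and with DESeq2, against 1.84% of all genes.

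Between the 2 lesioned groups, Nkx2-1 was the gene of the 10 that rose from day 3 to day 10, where 6.33% of all genes tested were higher. It was at 6.99, 6.79 and 6.003 FPKM in PEL_3d and at 11.3, 10.9 and 8.10 FPKM in PEL_10d, without overlap (log2 fold change 0.60, SE 0.14, adjusted p = 0.0152, edgeR). It did not pass without PEL_3d 3, without PEL_10d 2, or in 1 fit over all groups of the tissue that includes Sham 1 (adjusted p = 0.504, edgeR). Between these groups 3 of 8 neuron markers rose and 1 fell, all 5 oligodendrocyte markers rose, and all 7 microglia and macrophage markers fell, from 402 to 479 FPKM to 169 to 206 FPKM in sum. Astrocyte markers summed to 1102 to 1244 FPKM in PEL_3d and to 787 to 896 FPKM in PEL_10d. The part of these shifts in the rise of Nkx2-1 was not tested. The remaining 9 genes had log2 fold changes of -0.04 to 0.36 and did not pass.

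Under GH, 5 of the 10 genes fell at day 3 against Sham with GH, where 25.2% of all genes tested were lower. Sim1 was at 2.99, 3.42 and 2.49 FPKM in Sham with GH and at 1.36, 1.62 and 1.68 FPKM in PEL_3d with GH, without overlap (log2 fold change -0.95, SE 0.14, adjusted p = 0.000283, edgeR). Isl1 fell from 8.42, 9.75 and 12.5 FPKM to 5.37, 6.11 and 6.18 FPKM (log2 fold change -0.82, SE 0.14, adjusted p = 0.000819, edgeR). Nkx2-1 was at 14.4, 12.8 and 11.2 FPKM in Sham with GH and at 8.02, 8.46 and 7.28 FPKM after the lesion (log2 fold change -0.72, SE 0.11, adjusted p = 0.000412, edgeR). Each of these 3 genes was lower in every lesioned library than in every Sham library with GH. Pou3f2 and Arnt2 fell by 0.40 and 0.35 on the log2 scale, and Six3 and Six6 had log2 fold changes of 0.15 and 0.13 that did not pass. All 5 calls were lost in 1 fit over all groups of the tissue that includes Sham 1 (adjusted p of 0.0836 to 0.303, edgeR).

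At day 10 under GH, 3 of the 10 genes fell against Sham with GH, where 13.3% of all genes tested were lower. Nkx2-1 was at 7.03, 6.71 and 7.58 FPKM in PEL_10d with GH, below all 3 Sham libraries with GH (log2 fold change -0.87, SE 0.10, adjusted p = 0.000167, edgeR). Sim1 was at 1.91, 2.02 and 1.81 FPKM, also without overlap (log2 fold change -0.49, SE 0.12, adjusted p = 0.0109, edgeR). Isl1 was at 8.15, 7.69 and 7.82 FPKM (log2 fold change -0.39, SE 0.13, adjusted p = 0.0415, edgeR) and lost its call under 7 of 13 alternatives: without SHAM-GH 2, SHAM-GH 3, PEL_10d-GH 2 or PEL_10d-GH 3, with a mean count of at least 50, and in both fits over all groups of the tissue. Sim1 lost its call without SHAM-GH 2 and in both of these fits, and Nkx2-1 in the fit that includes Sham 1 (adjusted p = 0.264, edgeR). The count was 1 without SHAM-GH 2. Without PEL_10d with GH 3, the library with the high summed level of peptide genes, Nkx2-1 had a log2 fold change of -0.90 (adjusted p = 0.000376, edgeR) and Sim1 of -0.46 (adjusted p = 0.0341, edgeR). Under GH, 7 of 8 neuron markers fell at day 3 and 8 of 8 at day 10, and all 7 microglia and macrophage markers rose on both days. At day 3 under GH, astrocyte markers summed to 998 to 1339 FPKM against 447 to 465 FPKM, and oligodendrocyte markers to 2099 to 2503 FPKM against 2016 to 2253 FPKM, which overlap. At day 10 under GH, 3 of 5 astrocyte markers rose, summing to 898 to 1300 FPKM against 447 to 465 FPKM, and all 5 oligodendrocyte markers rose, summing to 3603 to 4057 FPKM against 2016 to 2253 FPKM. Their part in the falls was not tested. These comparisons do not share control libraries with those against Sham.

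**Figure D3:**
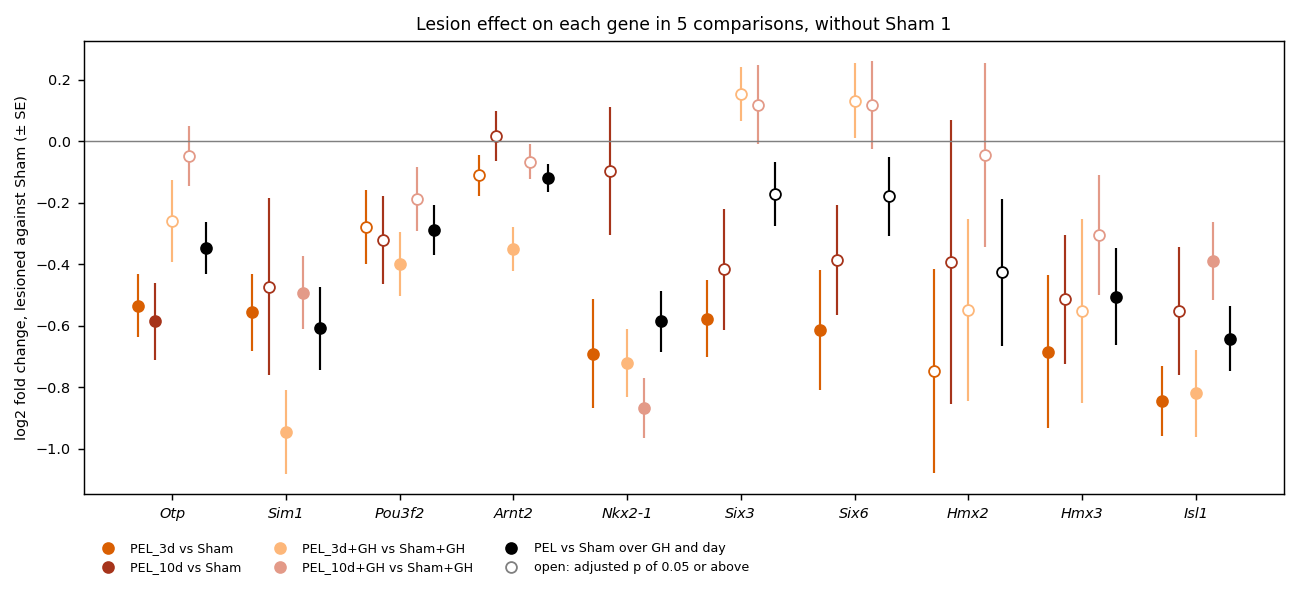
Log2 fold change of lesioned against Sham groups (vertical axis, ± SE) for each of the 10 genes in 5 comparisons without Sham 1. Filled points passed an adjusted p of 0.05 in edgeR. Isl1, at -0.84 at day 3, is below 0 in all 5 comparisons, and Six3 and Six6 lie above 0 in the 2 comparisons under GH.

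Over both days, with and without GH, the lesioned groups (12 libraries) were compared with the Sham groups (5 libraries without Sham 1). The contrast was of group means, with the groups of each side weighted equally. Here 7 of the 10 genes fell, where 25.6% of all genes tested were lower. Isl1 had a median of 7.05 FPKM (5.32 to 9.71) after the lesion and 11.1 FPKM (8.42 to 12.5) in Sham, and 10 of the 12 lesioned libraries lay below every Sham library (log2 fold change -0.64, SE 0.11, adjusted p = 8.3e-05, edgeR). Nkx2-1 had medians of 7.43 and 12.8 FPKM (log2 fold change -0.59, SE 0.10, adjusted p = 9.9e-05, edgeR). Sim1 had medians of 1.83 and 2.84 FPKM, and 11 of 12 lesioned libraries lay below every Sham library (log2 fold change -0.61, SE 0.13, adjusted p = 0.00104, edgeR). For all 10 genes the ranges of the groups overlapped.

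Hmx3 (log2 fold change -0.51), Otp (-0.35), Pou3f2 (-0.29) and Arnt2 (-0.12, SE 0.05, adjusted p = 0.0395, edgeR) also fell, Arnt2 losing its call under 11 of 22 alternatives and Hmx3 without Sham 2 alone. Six3 (-0.17), Six6 (-0.18) and Hmx2 (-0.43, SE 0.24) did not pass. The median log2 fold change was -0.39 over the 10 genes and 0.00 over all genes tested. With Sham 1 included, 0 of the 10 genes passed, also at an unadjusted p under 0.05 and with DESeq2, where 40.3% of all genes did, and their median was -0.14.

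Of 24 other hypothalamic transcription factors, 8 fell and 1 rose in this comparison, with a median log2 fold change of -0.28. Bsx, a homeobox factor of arcuate neurons, fell by 0.84 on the log2 scale (SE 0.12, adjusted p = 2.98e-05, edgeR), Tbx3 by 0.77 (SE 0.22, adjusted p = 0.00778, edgeR) and Esr1, the estrogen receptor alpha gene, by 0.49 (SE 0.12, adjusted p = 0.00223, edgeR). Nkx2-2, a homeobox gene also used in the oligodendrocyte lineage, rose by 0.63 (SE 0.13, adjusted p = 0.00047, edgeR). Of 12 hippocampal transcription factors 11 were tested, of which 4 fell. The 8 neuron markers all fell (median -0.32 on the log2 scale), and their summed levels were 1127 to 1500 FPKM against 1569 to 1722 FPKM in Sham. The 7 microglia and macrophage markers all rose, with a median of 1.85 and summed levels of 169 to 523 FPKM against 57.8 to 83.2 FPKM. Of 5 oligodendrocyte markers 5 rose, with a median of 0.33 and summed levels of 2099 to 4057 FPKM against 1895 to 2655 FPKM, which overlapped. Of 5 astrocyte markers 4 rose, with summed levels of 787 to 1339 FPKM against 432 to 465 FPKM. The part of these shifts in the falls of the 10 genes was not tested.

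**Figure D4:**
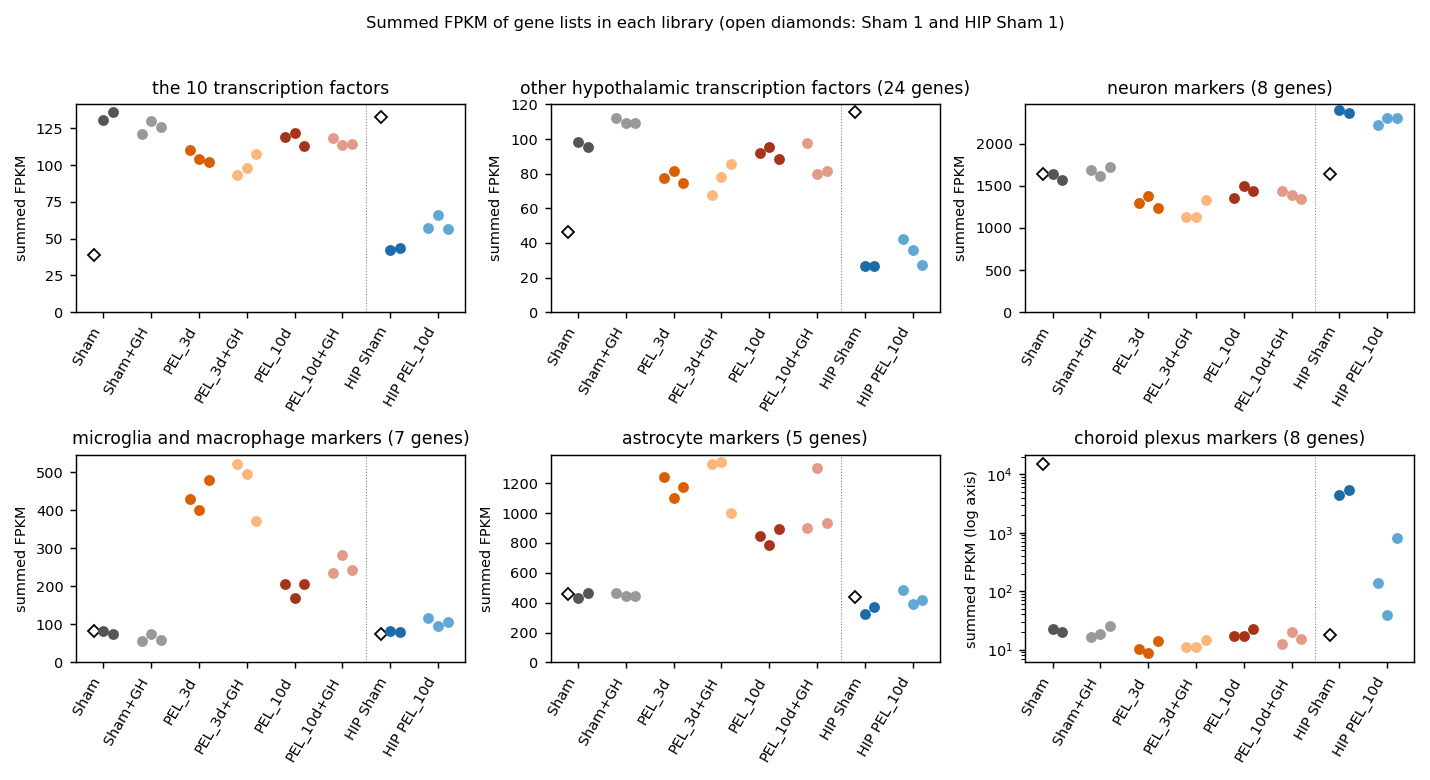
Summed FPKM of gene lists in each library by group, with open diamonds for Sham 1 and HIP Sham 1. The choroid plexus panel has a log axis. Microglia and macrophage markers lie at 169 to 523 FPKM in the lesioned hypothalamic libraries and at 57.8 to 83.2 FPKM in the 5 other Sham libraries.

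Given GH, the lesioned hypothalamus did not differ from that without GH for any of the 10 genes by edgeR. At day 3 the share of all genes that passed was 0.027%, and 2 of the 10 were under an unadjusted p of 0.05. At day 10 it was 0%, and 1 of the 10, Nkx2-1, was under that p. DESeq2 also called 0 of the 10 on either day. Nkx2-1 was at 11.3, 10.9 and 8.10 FPKM without GH and at 7.03, 6.71 and 7.58 FPKM with it, without overlap (log2 fold change -0.48, SE 0.13, adjusted p = 0.712, edgeR). Its difference between the days in response to GH was -0.74 on the log2 scale (SE 0.18, adjusted p = 0.9998, edgeR), and that between Sham and PEL_10d was -0.77 (SE 0.25, adjusted p = 0.338, edgeR). In both of these interactions 0 of the 10 genes passed by edgeR and by DESeq2, and 0% of all genes by edgeR. In Sham without Sham 1, 0 of the 10 passed, where 1.09% of all genes did, 1 passed with DESeq2, and 3 were under an unadjusted p of 0.05. Six3 had 10.7 and 14.7 FPKM in Sham, while the libraries with GH had 8.76, 9.62 and 9.39 FPKM (log2 fold change -0.48, SE 0.11, adjusted p = 0.0657, edgeR), and Six6 had a log2 fold change of -0.49 (SE 0.11, adjusted p = 0.0608, edgeR). With Sham 1 included, 0 of the 10 passed, also at an unadjusted p under 0.05 and with DESeq2, and 0% of all genes did by edgeR. Over all lesion groups 0 of the 10 passed, also at an unadjusted p under 0.05 and with DESeq2, against 0.411% of all genes.

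In the hippocampus, Pou3f2, Arnt2 and Six3 were the genes of the 10 with enough counts to be tested. Arnt2 was at 40.3 and 41.6 FPKM in HIP Sham 2 and 3 and at 53.0, 64.6 and 54.6 FPKM in HIP PEL_10d, without overlap. It rose by 0.45 on the log2 scale (SE 0.09, adjusted p = 0.025, edgeR), where 2.09% of all genes tested were higher, and lost its call without HIP Sham 2 or HIP Sham 3. Choroid plexus markers moved with the same groups, at 4341 and 5438 FPKM in HIP Sham 2 and 3 and at 39.7 to 799 FPKM in HIP PEL_10d, and Sham 1, at 14883 FPKM, had the lowest Arnt2 level of the 24 libraries (31.5 FPKM). Their part in the rise was not tested. Pou3f2 was at 1.41 and 1.40 FPKM in HIP Sham and at 1.29, 1.19 and 1.40 FPKM after the lesion (log2 fold change -0.15, SE 0.15). Six3 was at 0.650 and 0.694 FPKM in HIP Sham and at 0.945, 0.115 and 0.134 FPKM after the lesion, which overlap (log2 fold change -0.74, SE 0.76, adjusted p = 0.599, edgeR). Without HIP PEL_10d 1 its log2 fold change was -2.38 (adjusted p = 0.0112, edgeR), and with the replicate block -2.37 (adjusted p = 0.0166, edgeR). The lesion effect on Arnt2 differed between hypothalamus and hippocampus by -0.46 on the log2 scale (SE 0.13, adjusted p = 0.0383, edgeR), where 10.7% of all genes passed, and this call was lost under 8 of 15 alternatives. With HIP Sham 1 included, 0 of the 3 tested genes passed, also at an unadjusted p under 0.05 and with DESeq2, and 0% of all genes did.

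Across the 17 hypothalamic libraries without Sham 1, Six3 and Six6, paralogs of the sine oculis family, had the most alike levels among the 45 pairs of these genes, with Pearson's r of 0.89. All correlations are of log2(FPKM + 0.1) and are descriptions, since the libraries share groups and normalization. Each of the pair was also the nearest of 13395 genes to the other, and Plxdc1 came next for both. Sim1 and Pou3f2 had an r of 0.81, and Sim1 and Arnt2 of 0.68. After the mean of each group was subtracted, the r was 0.84 for Six3 and Six6, 0.60 for Sim1 and Pou3f2 and 0.71 for Sim1 and Arnt2, while Six3 had an r of -0.66 with Sim1 and of -0.67 with Pou3f2. The median over the 45 pairs was 0.36, with 36 above 0, and -0.06 after subtraction, with 20 above 0. Among all genes, the most alike were Mboat7 and Brdt for Otp, Fam126b and Mapk9 for Sim1, Eif1ax and Cntn6 for Pou3f2, Map4 and Asxl3 for Arnt2 and Ghsr and Slit2 for Nkx2-1. For Hmx2 they were Galr1 and BC035947, for Hmx3 Thtpa and Nipsnap1, and for Isl1 Jazf1 and Gpr149. These r values ranged from 0.75 (BC035947 with Hmx2) to 0.94 (Jazf1 with Isl1).

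**Figure D5:**
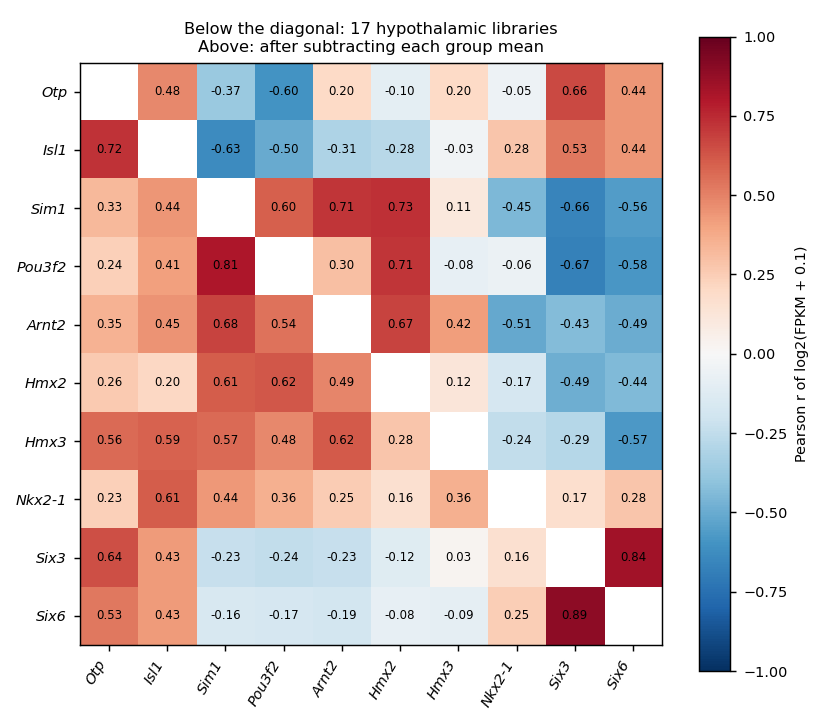
Pearson's r of log2(FPKM + 0.1) between each pair of the 10 genes over 17 hypothalamic libraries, below the diagonal, and after subtraction of group means, above it. Six3 and Six6 have an r of 0.89 and of 0.84.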

How the data were processed

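Estimated counts and FPKM values per gene and library were deposited by the authors in 1 table. According to the study's methods, reads were aligned with Hisat2 and counted with featureCounts, and the labels name GRCm38. Strandedness is not given in the sources used here. The deposited FPKM values were used as given. Of the deposited estimated counts, 8.22% were not whole and were rounded. Identifiers of 22219 genes were matched to symbols, and 55 kept their identifier.

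Tests used edgeR 4.0.16 under R 4.3.3 (TMM normalization, filterByExpr with a minimum count of 10, quasi-likelihood test, Benjamini-Hochberg adjustment over all genes tested, threshold 0.05). Each fit held only the groups compared. Tested on simulated data, PEL_10d against Sham without Sham 1 recovered 93% of 200 genes changed by 1 on the log2 scale. Of the genes it called, 15.5% were false, which bears on the day 10 call of Otp. For lesion over GH and day 6.6% were false, and 7.39% between the tissues. The changed genes had a mean count of at least 50. Lesion effects on the 10 genes were smaller than 1, and recovery of such changes was not measured. Named were all 10 genes, for each the 2 genes with the highest Pearson's r among genes with a mean FPKM of at least 1, and the 4 other hypothalamic transcription factors with the lowest adjusted p. Floors and intervals cover counting error only. The genes and lists were chosen with earlier results of these data known. Alternatives were DESeq2 1.42.0, its size factors, other count filters, a replicate block, 1 fit over all groups of a tissue, and each library left out.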

Additional observations from a re-analysis of the deposited data

Results flagged for a closer look

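The effect of the day 10 lesion on Arnt2 differed between the tissues, tested as an interaction without Sham 1 and HIP Sham 1. Arnt2 had a log2 fold change of 0.02 (SE 0.08) in the hypothalamus and of 0.45 (SE 0.09) in the hippocampus, a difference of -0.46 (SE 0.13, adjusted p = 0.0383, edgeR), and 10.7% of all genes tested passed in this interaction. The adjusted p was 0.00485 with DESeq2 and between 0.0197 and 0.197 over the edgeR alternatives. The call was lost under 8 of 15 alternatives, each leaving out 1 library. These were HIP PEL_10d 2 and 3, HIP Sham 2 and 3, PEL_10d 1 and 2, and Sham 2 and 3. Choroid plexus markers summed to 4341 and 5438 FPKM in HIP Sham 2 and 3 and to 39.7 to 799 FPKM in HIP PEL_10d, against 19.9 to 22.3 FPKM in Sham without Sham 1 and 17.3 to 22.7 FPKM in PEL_10d. Their part in the difference was not tested.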

How the results depend on the processing

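The values followed were 89, those of all 10 genes in 8 comparisons and 9 of single genes in other comparisons. Under 1160 alternatives, 1069 kept their direction and their side of the threshold, 58 lost their call, 15 gained one and 18 changed sign. All of the last did so when 1 library was left out, and none of them was called. Over all comparisons, 151 values were not called, and under 2159 alternatives 32 of these passed the threshold and 135 changed sign, 74 of them in comparisons with all libraries. Counts of the 10 genes were within 1.5 times the reported count under 249 of 283 alternatives. With the replicate block, 4 genes passed in PEL_10d against Sham without Sham 1, 1 in Sham with GH against Sham and 2 in HIP PEL_10d against HIP Sham without HIP Sham 1. Correlations of same-numbered libraries, as deviations from group means, had a median of 0.0094 (-0.861 to 0.373). The lowest was that of Sham 1 with HIP Sham 1. In 0 of 28 pairs of groups were all 3 over 0.1, with 0.0987, 0.373 and 0.103 in PEL_3d with PEL_10d. These values cannot settle whether the numbers stand for a batch or a pairing. For Sham with GH against Sham, 2 genes passed with no filter on low counts and 1 with DESeq2. In 1 fit over all groups of the tissue, which holds Sham 1, 0 passed in PEL_10d against PEL_3d and in both lesion comparisons under GH. In an alternative chosen after seeing the data, the same fit without Sham 1, 1 passed in PEL_10d against Sham with GH. The cause was not tested.

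With each library left out in turn, counts ranged from 0 to 1 in PEL_10d against Sham without Sham 1, from 3 to 8 in PEL_3d against Sham without Sham 1, from 0 to 2 in PEL_10d against PEL_3d, from 5 to 7 in PEL_3d and from 1 to 3 in PEL_10d against Sham under GH, from 0 to 1 in Sham with GH against Sham, from 0 to 2 in HIP PEL_10d against HIP Sham without HIP Sham 1 and from 0 to 2 in the interaction of lesion and tissue. With all libraries, they ranged from 0 to 7 at day 3 and over GH and day, and from 0 to 1 at day 10 and in the hippocampus. The log2 fold changes that changed sign ranged, in PEL_10d against Sham without Sham 1, from -0.038 to 0.084 for Arnt2 and from -0.41 to 0.29 for Nkx2-1. In PEL_10d against PEL_3d they ranged from -0.16 to 0.049 for Otp, -0.22 to 0.37 for Sim1, -0.12 to 0.10 for Pou3f2, -0.025 to 0.34 for Six3 and -0.10 to 0.73 for Hmx2. In Sham with GH against Sham they ranged from -0.011 to 0.68 for Nkx2-1 and -0.22 to 0.25 for Hmx2, and in PEL_10d with GH against Sham with GH from -0.14 to 0.025 for Otp, -0.025 to 0.26 for Six6 and -0.24 to 0.23 for Hmx2.

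Over all genes, DESeq2 called 57 against 4 for GH at day 3, 41 against 0 for GH at day 10, 161 against 63 for GH over all lesion groups, 262 against 159 for GH in Sham without Sham 1 and 11 against 0 with it, 200 against 0 in the hippocampus with all libraries, 97 against 0 for the interaction of lesion and GH, and 701 against 269 at day 10 and 2755 against 1683 at day 3 with Sham 1. With no filter, 8 genes passed for GH at day 3, 359 for GH in Sham without Sham 1 and 12 for that interaction. The replicate block gave 0 at day 10 and 980 at day 3 with Sham 1, 1 for GH at day 3, 317 for GH in Sham and 1486 against 873 in the hippocampus without HIP Sham 1. The fit over all groups gave 982 at day 10, 4473 at day 3 and 7 for GH in Sham, all with Sham 1, 13 for GH in Sham without it, 1531 against 2742 between the days, 1957 against 4545 at day 10 under GH and 0 for GH at day 3. Without Sham 1 it gave 9 for GH at day 3 and 2 for GH at day 10.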
